A study of Arabidopsis thaliana with 4 samples.

Results

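The transcriptomes of 2 Arabidopsis thaliana splicing mutants, zop1 and sta1, were compared directly with each other, with the wild type left out of the difference. Of the 34133 loci in the table, 19240 entered because their mean over the 4 libraries of the series was at least 1 FPKM, and each was compared as log2(FPKM + 1) in zop1 minus the same in sta1. FPKM, the authors' measure of fragments per length of transcript and per size of library, is a level adjusted for both, so that levels can be set side by side between genes. The last locus inside that limit, AT5G35777, had a mean of 1.0003 FPKM (1.22 in zop1 and 1.56 in sta1), and the first outside it, AT2G11891, had a mean of 0.998 FPKM (listed at 0 in zop1 and at 1.52 in sta1).

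Poly(A)-enriched RNA was sequenced from seedlings of ecotype C24, grown for 10 days on agar at 23 °C under 16 h of light and 8 h of dark. The 4 groups were wild-type C24 and the mutants prp31, zop1 and sta1, all in the same ecotype, with 1 library each. The labels give no allele, no position of a lesion, no number of plants and no batch, so differences of genotype cannot be told apart from differences between plants or preparations, and no p-value is given. The series addresses PRP31 in gene silencing and in the stress response, with zop1 and sta1 profiled beside it.

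The spliceosome removes introns from pre-mRNA, and its U4/U6 and U5 particles join as the tri-snRNP before splicing starts. STA1 is the Arabidopsis relative of the tri-snRNP protein PRP6, PRP31 is a U4/U6 protein that helps to hold the tri-snRNP together, and ZOP1 is a zinc-finger protein with an OCRE domain that binds nucleic acid. Mutants in all of these genes are known in Arabidopsis for intron retention and for weakened transcriptional gene silencing, so a direct comparison asks in which genes the libraries of a pair of related splicing mutants part.

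The mutated genes were examined as a check of the labels. ZOP1 (AT1G49590) was at 7.99 FPKM in zop1 and at 15.02 in sta1, 14.1 in the wild type and 12.8 in prp31, a log2 difference of -0.83 between zop1 and sta1. Its transcript was thus lowest in the zop1 library. STA1 (AT4G03430) was at 18.9 FPKM in sta1, 15.6 in zop1, 15.5 in prp31 and 14.1 in the wild type (log2 difference -0.26), and so was not lowered in the library named after it. PRP31 (AT1G60170), mutated in neither, was at 25.1 FPKM in zop1 and 23.7 in sta1.

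The libraries were close over most genes. Protein-coding loci whose longest annotated transcript is at least 500 nt (18360 of the 19240, called long here) had a median difference of 0.04 and an SD of 0.27 on the log2 scale, and 57.7% of them were above 0. A locus is called past 2-fold where the difference reached 1 on that scale, a rule of size and not a test. Among all loci 139 (0.722%) were past 2-fold higher in zop1 and 122 (0.634%) lower. Among long protein-coding loci these were 73 (0.398%) and 65 (0.354%), and the median of all loci was also 0.04. At the looser size of 1.5-fold 482 long loci (2.63%) were higher and 236 (1.29%) lower, while past 4-fold stood 7 (0.0381%) and 8 (0.0436%). Whole reads could be recovered from the steps between low FPKM values at 10644 of the tested loci, and 1 read was worth 1.09 times as much FPKM in zop1 as in sta1, so sta1 was the slightly deeper library. Where reads were recovered, folds below are followed by an exact 95% interval of the FPKM ratio, which covers counting error only. Of the long loci past 2-fold, 45 higher and 47 lower in zop1 had recovered reads. The interval left out no difference at 43 and 40 of them. Since these loci were picked by the same difference in the same libraries, that tally is no separate support for it.

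**Figure D1:**
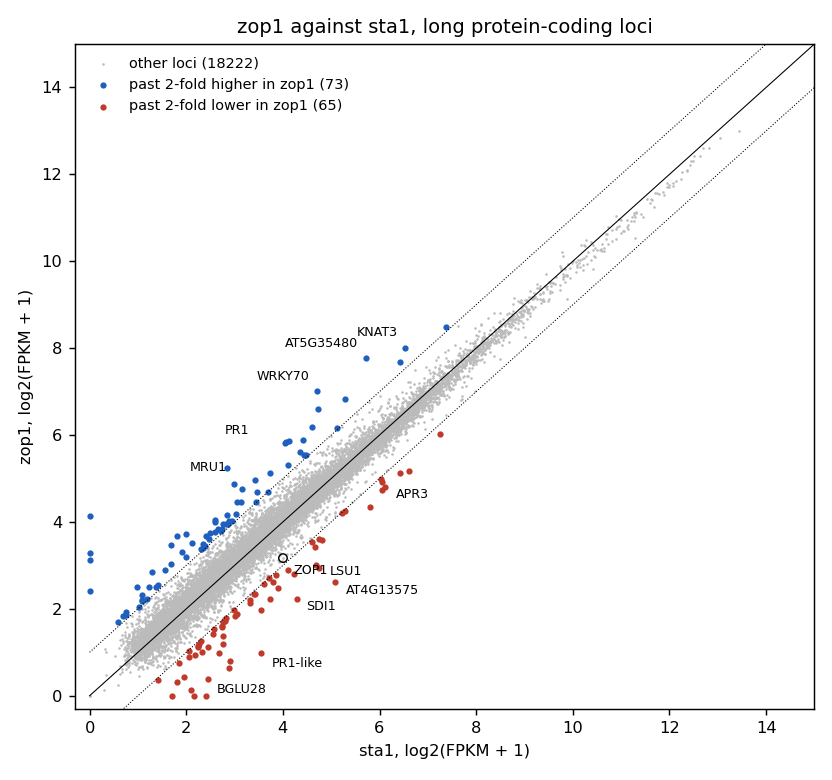
Each point is 1 long protein-coding locus, placed by its log2(FPKM + 1) in sta1 (horizontal) and in zop1 (vertical), with 1 library a side. The solid line marks equal levels and the dotted lines a difference of 1; 73 loci lie on or above the upper dotted line and 65 on or below the lower one, and ZOP1 is circled.

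Organ markers were set beside the gene differences, since fewer cells of a type and less RNA per cell cannot be told apart in whole seedlings. The nuclear photosynthesis genes marked green tissue: 36 of 37 entered, 35 of them were below 0, none was past 2-fold, and their median difference was -0.28. Their summed level was 111926 FPKM in zop1, 133879 in sta1, 122359 in the wild type and 127552 in prp31, and RBCS1A was listed at 0 in every library. LHCB1.3, a light-harvesting chlorophyll-binding protein gene with close copies that can share reads, had the largest difference, -0.44. Root markers leaned the other way, with 18 of 20 entered, 15 above 0 (57.4% over all loci) and a median of 0.24. Those past 2-fold were TIP2;3, a tonoplast aquaporin gene, at 6.15 FPKM in zop1 and 1.46 in sta1, and CASP5, a Casparian strip protein gene, at 3.66 and 1.29. Their summed level did not follow the median, at 1753 FPKM in zop1 and 1884 in sta1 against 1615 in the wild type and 1857 in prp31, and PYK10 alone, at 1233 FPKM in zop1 and 1454 in sta1, makes up most of it; PLT1 and PLT2 stayed under 1 FPKM. What part these shifts have in the gene differences that follow was not tested.

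Genes of sulfur limitation were the list lying furthest below 0. When sulfate is scarce, plants raise sulfate transporters, the APS reductases that commit sulfate to reduction, and a set of small or regulatory proteins (LSU1 to LSU3, SDI1, BGLU28) that are used as markers of sulfur status. All 10 listed members entered: 5 were past 2-fold lower in zop1, none higher, 8 were below 0, and the median difference was -0.88, beside 0.04 over all loci. The GAGAC core of the sulfur-responsive element, known from Arabidopsis sulfate transporter promoters, was looked for on either strand (GAGAC or GTCTC) in the 250 bases before the RefSeq gene start of each. The stretches of SDI1 (chr5:19807854-19808103, minus strand), BGLU28 (chr2:18346056-18346305, plus strand), LSU1 (chr3:18375941-18376190, minus strand) and its neighbour LSU3 (chr3:18373148-18373397, minus strand) are printed from the RefSeq TAIR10.1 reference, which is the Columbia and not the C24 ecotype, as the genes with the widest differences. They read 5′ to 3′ toward the gene, with the motif in capitals:
SDI1: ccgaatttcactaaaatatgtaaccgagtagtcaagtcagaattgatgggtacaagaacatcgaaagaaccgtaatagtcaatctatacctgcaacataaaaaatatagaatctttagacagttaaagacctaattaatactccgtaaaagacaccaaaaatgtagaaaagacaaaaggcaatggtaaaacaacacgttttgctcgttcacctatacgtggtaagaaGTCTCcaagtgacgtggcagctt
BGLU28: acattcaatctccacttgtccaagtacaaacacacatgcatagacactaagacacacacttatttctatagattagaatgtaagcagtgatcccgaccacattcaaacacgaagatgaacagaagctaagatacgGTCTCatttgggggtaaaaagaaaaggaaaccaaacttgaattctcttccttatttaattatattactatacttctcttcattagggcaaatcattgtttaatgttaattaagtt
LSU1: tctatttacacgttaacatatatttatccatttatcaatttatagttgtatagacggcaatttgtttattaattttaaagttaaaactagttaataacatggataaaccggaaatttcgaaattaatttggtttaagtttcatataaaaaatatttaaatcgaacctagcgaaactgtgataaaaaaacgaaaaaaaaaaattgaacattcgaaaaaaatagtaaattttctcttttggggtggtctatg
LSU3: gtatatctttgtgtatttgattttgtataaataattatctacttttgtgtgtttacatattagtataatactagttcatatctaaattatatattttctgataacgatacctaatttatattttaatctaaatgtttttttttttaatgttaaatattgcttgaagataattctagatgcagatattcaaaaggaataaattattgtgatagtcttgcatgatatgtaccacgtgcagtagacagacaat

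SDI1 held GTCTC 23 bases before its start and BGLU28 held it 115 bases before its start. The other 9 of the 11 windows examined, those of LSU1, LSU2, LSU3, APR1, APR2, APR3, SULTR1;1, SULTR1;2 and SULTR4;2, held neither form of the motif. Over the tested long protein-coding loci 25.1% of such windows (4601 of 18359) held it, as did 20 of the 65 loci past 2-fold lower in zop1 and 16 of the 73 higher. The match describes these letters only, and a motif further than 250 bases before the gene start would not be seen.

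SDI1 (AT5G48850), a tetratricopeptide-repeat protein known to hold back glucosinolate synthesis under sulfur deficiency, was at 3.70 FPKM in zop1, 18.7 in sta1, 16.1 in prp31 and 11.8 in the wild type. It was 5.05-fold higher in sta1 than in zop1 (4.21 to 6.10), a log2 difference of -2.07. BGLU28 (AT2G44460), a beta-glucosidase thought to release sulfur from glucosinolates, was at 0.310 FPKM in zop1, 4.44 in sta1, 4.90 in prp31 and 1.48 in the wild type. That is 14.3-fold higher in sta1 (9.32 to 23.2), on 22 reads in zop1 and 344 in sta1. In each of these genes zop1 was the lowest library and the wild type stood between zop1 and sta1.

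LSU1 (AT3G49580) was at 6.70 FPKM in zop1, 25.9 in sta1, 27.8 in prp31 and 17.1 in the wild type (log2 difference -1.80). Its neighbour LSU3 (AT3G49570), on the same strand of chromosome 3, was at 2.90 FPKM in zop1, 10.7 in sta1, 9.61 in prp31 and 13.0 in the wild type (3.70-fold higher in sta1, 2.52 to 5.55). LSU2 (AT5G24660), on chromosome 5, was at 17.4, 36.3, 42.3 and 31.8 FPKM in the same order (2.09-fold higher in sta1, 1.80 to 2.43). The LSU genes code for small proteins of one family, and reads from their common stretches may have been split by the authors' processing. All of them were lowest in zop1, and the other libraries lay within a narrower range.

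APR3 (AT4G21990), an APS reductase, was at 26.9 FPKM in zop1, 68.6 in sta1, 76.3 in prp31 and 55.1 in the wild type, a difference of -1.32. The other APS reductases leaned the same way without reaching 2-fold, APR2 with 215 FPKM in zop1 and 360 in sta1 (-0.74) and APR1 with 49.3 and 77.0 (-0.63). SULTR4;2, which moves sulfate out of the vacuole, was at 6.59 FPKM in zop1 and 11.3 in sta1 (-0.70). The uptake transporters did not share this pattern: SULTR1;2 was higher in zop1 at 64.3 FPKM than in sta1 at 41.2 (0.63), and SULTR1;1 was at 1.39 and 1.17 FPKM (0.14). AT5G26220, a ChaC-like protein of the family that breaks down glutathione and not a list member, was among the 15 long loci furthest below 0, at 0.743 FPKM against 6.54 in sta1, 4.28 in prp31 and 1.28 in the wild type (8.80-fold higher in sta1, 5.66 to 14.3).

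**Figure D2:**
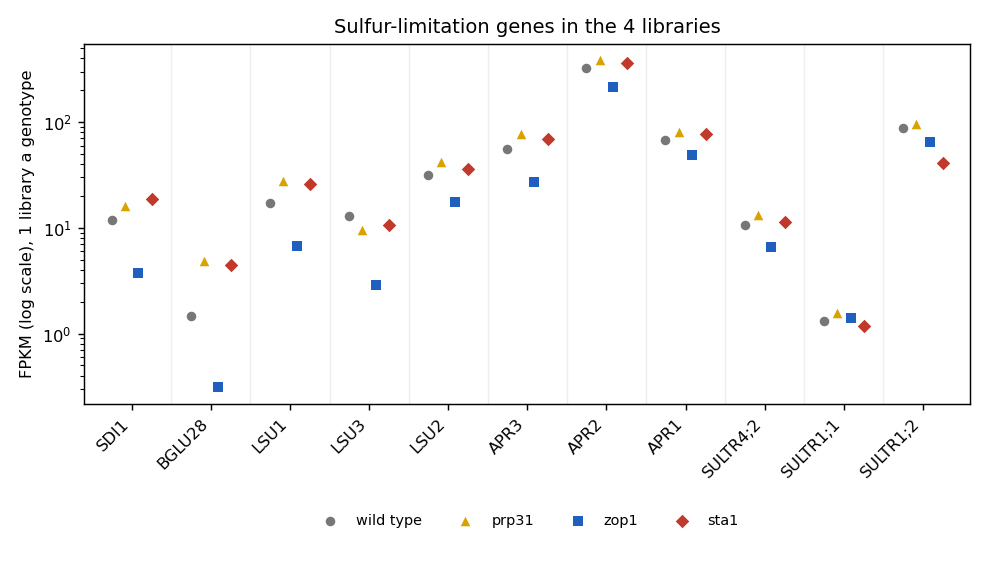
FPKM on a log scale (vertical) of the 10 sulfur-limitation genes and LSU3, with 1 point per library and genotype. The zop1 square is the lowest point in every gene except the SULTR1 pair at the right.

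Genes of salicylic acid signalling and immunity differed in opposite directions. Salicylic acid rises after infection and, through NPR1 and WRKY factors, turns on pathogenesis-related (PR) genes. Of 22 listed members 21 entered, 5 were past 2-fold higher in zop1, 1 was lower, 12 were above 0 and the median was 0.13. Over all tested loci, the background for every gene list here, 0.722% were past 2-fold higher in zop1, 0.634% lower and 57.4% above 0. The share of this list above 0 was thus near that background. The summed level of the list was 317 FPKM in zop1, 168 in sta1, 374 in the wild type and 309 in prp31.

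WRKY70 (AT3G56400), a transcription factor that relays salicylic acid signals, was at 128 FPKM in zop1, 25.1 in sta1, 60.9 in prp31 and 50.9 in the wild type. It was 5.10-fold higher in zop1 than in sta1 (log2 difference 2.30), with zop1 above and sta1 below the other libraries. WRKY54, its close relative, was at 2.63 FPKM in zop1, 0.677 in sta1, 2.54 in prp31 and 1.69 in the wild type (3.88-fold, 2.63 to 5.85). Here zop1 stood beside prp31 and sta1 alone was low.

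PR1 (AT2G14610), the usual marker of salicylic acid output, was at 56.9 FPKM in zop1, 16.4 in sta1, 34.3 in prp31 and 125 in the wild type (3.47-fold higher in zop1 than in sta1, 3.10 to 3.89). PRB1 (AT2G14580), a basic PR1 relative next to it but for a pseudogene, was at 4.66, 0.975, 1.36 and 4.47 FPKM in the same order (4.78-fold, 2.95 to 8.08). PR2, a beta-1,3-glucanase gene, was at 11.8, 4.34, 14.5 and 16.9 FPKM (2.72-fold, 2.30 to 3.22). For each of these PR genes sta1 was the lowest library, and for PR1 and PR2 the wild type was the highest.

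AT4G33720, another member of the PR1 family, went the other way and had the widest difference of all long loci lower in zop1. It was at 0.978 FPKM in zop1, 10.7 in sta1, 5.49 in prp31 and 5.13 in the wild type (10.9-fold higher in sta1, 7.14 to 17.5). Several genes that help to make or relay salicylic acid differed little. PAD4 was at 10.6 FPKM in zop1 and 10.7 in sta1, with a ratio interval of 0.900 to 1.10, EDS1 was at 12.9 and 14.0, the synthesis gene ICS1 at 22.8 and 20.1 and the receptor gene NPR1 at 8.02 and 7.27. SARD1, a regulator of salicylic acid synthesis, differed more and came close to the rule at 2.96 FPKM in zop1 and 1.11 in sta1 (0.91).

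PAD3 (AT3G26830), the cytochrome P450 of the last step to camalexin, the indole phytoalexin of Arabidopsis, was at 0.963 FPKM in zop1, 5.42 in sta1, 2.72 in prp31 and 2.86 in the wild type (5.63-fold higher in sta1, 4.25 to 7.59). The adjacent glutathione transferase genes GSTF7 and GSTF6 on chromosome 1, the latter known for a role in camalexin synthesis, were at 6.99 and 19.3 FPKM in zop1 and at 24.7 and 55.0 in sta1, with differences of -1.69 and -1.46. These copies are alike and may share reads. CYP71A13 (AT2G30770), an earlier enzyme of the pathway singled out after its values were seen, was at 3.37 FPKM in zop1, 9.04 in sta1, 3.23 in prp31 and 2.23 in the wild type (2.68-fold higher in sta1, 2.27 to 3.17). For PAD3 and the GSTF pair zop1 was the lowest library, whereas for CYP71A13 sta1 was the highest and the other libraries lay together.

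**Figure D3:**
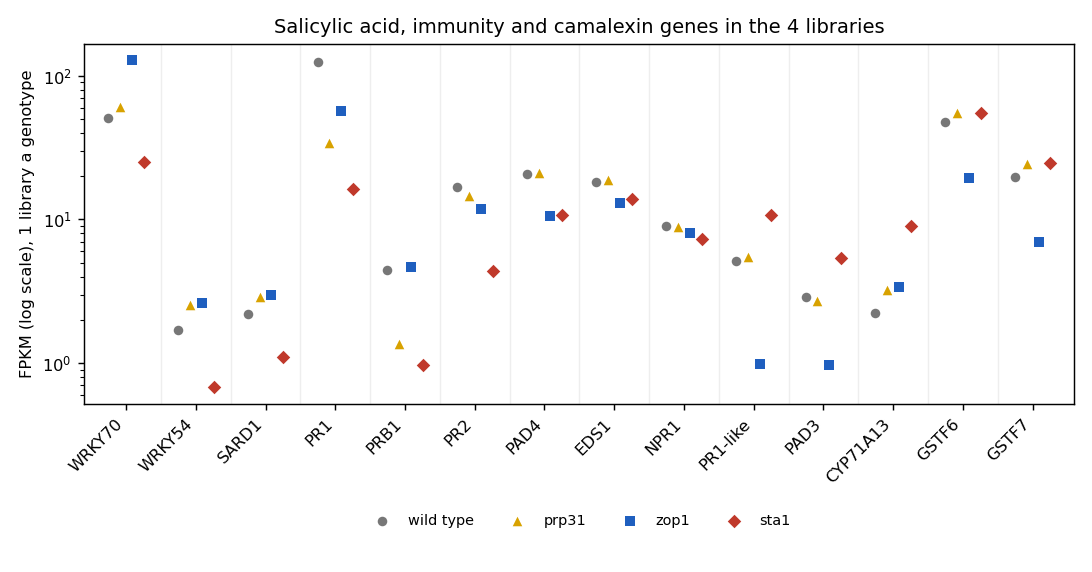
FPKM on a log scale (vertical) of genes of salicylic acid signalling, immunity and camalexin, with 1 point per library and genotype. From WRKY70 to PR2 the sta1 diamond is the lowest point, PAD4, EDS1 and NPR1 are level between zop1 and sta1, and from PR1-like (AT4G33720) to GSTF7 the zop1 square lies below the sta1 diamond.

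A tandem group of lipid-transfer protein genes was higher in zop1. These small secreted cysteine-rich proteins bind lipids at the cell surface. On chromosome 4 (11844506 to 11858970, TAIR10.1) AT4G22485, AT4G22490, AT4G22505, AT4G22513, AT4G22517 and the shorter AT4G22520 were all past 2-fold higher in zop1, with differences from 1.38 to 1.88. AT4G22505 was at 96.5 FPKM in zop1, 25.4 in sta1, 36.6 in prp31 and 89.1 in the wild type, and AT4G22490 was at 71.3, 23.4, 31.2 and 75.9 FPKM in the same order (3.05-fold higher in zop1, 2.73 to 3.40). Across the group zop1 lay near the wild type and sta1 near prp31. AT4G22470, a family member just before the group, did not enter, at 0.685 FPKM in zop1 and 0.973 in sta1. AT4G22530, a methyltransferase-like gene at the end of the group whose span holds AT4G22520 on the other strand, was at 2.77 FPKM in zop1 and 4.19 in sta1 (-0.46). The copies resemble each other and may share reads, and AT4G22510, which did not enter, splits the group into runs of 3 and 2 adjacent loci and lies on the other strand across AT4G22513 and AT4G22517; whether the counting used strand is not given in the sources used here.

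A second pair of the family, AT5G46890 and AT5G46900 on chromosome 5, was at 26.1 and 11.2 FPKM in zop1, 7.90 and 4.58 in sta1, 21.3 and 10.5 in prp31 and 26.3 and 15.7 in the wild type (3.30-fold higher in zop1, 2.73 to 4.01, and 2.45-fold, 1.93 to 3.13). Here sta1 alone stood apart. AZI1 (AT4G12470), a lipid-transfer protein gene of systemic immunity in the EARLI1 cluster, went the other way at 35.0 FPKM in zop1, 96.7 in sta1, 108 in prp31 and 49.5 in the wild type (-1.44). Of that cluster 8 of 9 members entered, AZI1 was the 1 past 2-fold, 5 were above 0 and the median was 0.22. AIR1 in the cluster, for example, was at 8.03 FPKM in zop1 and 4.86 in sta1, with 26.5 in the wild type.

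A run of 4 neighbouring loci on chromosome 5 (13687847 to 13700144) was high in zop1 alone. AT5G35480, uncharacterised, was at 217 FPKM in zop1, 51.5 in sta1, 51.8 in prp31 and 36.6 in the wild type (4.21-fold higher in zop1, 3.74 to 4.75). MRU1 (AT5G35490), named for its higher level in the methionine-rich mutant mto1, was at 28.4 FPKM in zop1, 6.88 in sta1, 5.80 in prp31 and 4.27 in the wild type (4.13-fold, 3.47 to 4.94). The pseudogene AT5G35495 was at 4.47 FPKM in zop1 and 0.829 in sta1, and AT5G35510, annotated as a disease-resistance gene of the TIR-NBS-LRR class, at 26.5 and 7.88. The nearest tested loci on either side were level, AT5G35460 at 55.2 FPKM in zop1 and 57.8 in sta1 and the kinetochore gene MIS12 at 5.03 and 4.94. AT5G35475, between AT5G35460 and AT5G35480, did not enter, at 0 FPKM in zop1 and 0.0800 in sta1. Among tested loci the high level in zop1 was thus confined to this run, but where it begins is not shown.

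**Figure D4:**
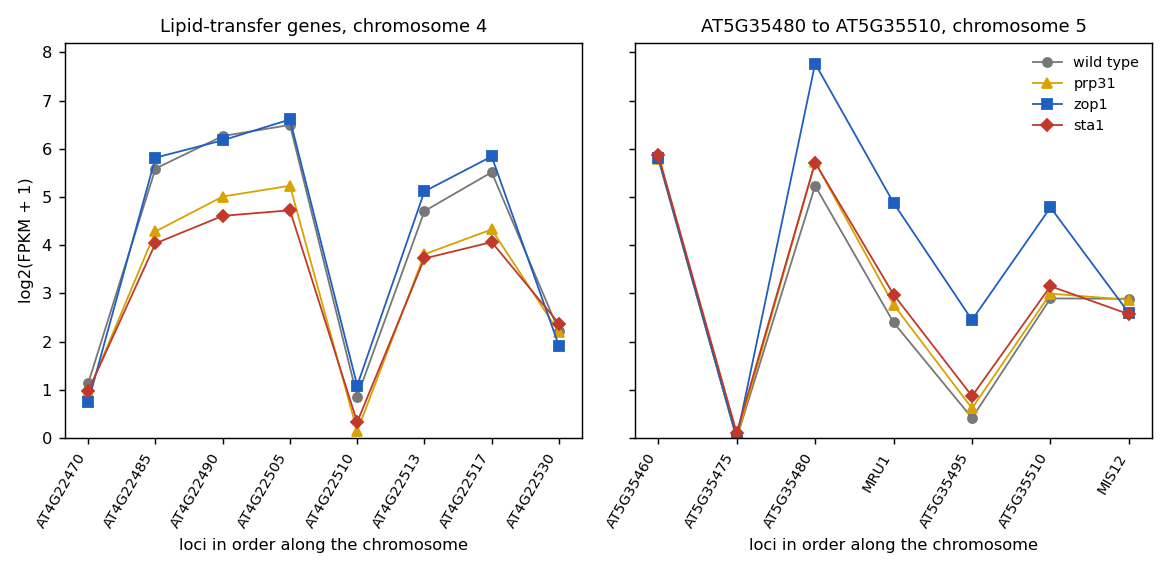
Levels as log2(FPKM + 1) (vertical) of the loci in order along 2 stretches, with 1 line per library. On the left, from AT4G22485 to AT4G22517, zop1 runs with the wild type and sta1 with prp31. On the right zop1 alone is high from AT5G35480 to AT5G35510 and meets the other libraries at the flanking AT5G35460 and MIS12.

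Several loci in a stretch of chromosome 4 leaned the other way. UNE15 (AT4G13560), a late embryogenesis abundant protein gene, and HTA4 (AT4G13570), a histone H2A gene, were next to each other and had differences of -1.08 and -1.17. HTA4 was at 5.18 FPKM in zop1, 12.9 in sta1, 5.35 in prp31 and 5.67 in the wild type, so sta1 alone was high. UNE15 rested on 20 recovered reads in zop1 and 66 in sta1. AT4G13575, an uncharacterised gene close by, was at 5.17 FPKM in zop1, 32.9 in sta1, 20.9 in prp31 and 33.9 in the wild type. It was 6.36-fold higher in sta1 (5.21 to 7.84), and there zop1 alone was low. Of the other loci there, AT4G13572 came just short of the rule (-0.995). MIR841a was level (0.07) on 1 recovered read in each library of the pair, and AT4G13580, next after AT4G13575, was higher in zop1 (0.43). Among loci of every kind, 13 of the 139 past 2-fold higher in zop1 lay in 5 runs of adjacent loci and 14 of the 122 lower in 7 runs. These runs include pairs of tRNA, snoRNA and pseudogene loci, such as the tRNA genes AT1G28720 and AT1G28730. The snoRNA loci AT5G66564 and AT5G66567 rested on 1 recovered read each in sta1. How many runs would arise with no link between neighbours was not tested.

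The wild type and prp31 were then used to see which library of the pair stood away. At 30 long loci (0.163%) zop1 was past 2-fold above each of the other 3 libraries and at 19 (0.103%) below each. For sta1 these counts were 9 (0.049%) above and 13 (0.0708%) below. Those above include AT5G24640, on 2 recovered reads in zop1 and 8 in sta1. Those below include AT3G25011, on 1 recovered read in zop1 and 0 in sta1, and CRF12, treated below with its mirror locus. The same count for the wild type gave 8 (0.0436%) above and 7 (0.0381%) below, and for prp31 8 (0.0436%) and 6 (0.0327%). At 28 of the 30 loci high in zop1 every other library was above 0. There the highest of the other 3 libraries was a median of 1.18 times the lowest, under 1.2 times at 16 and under 1.5 times at 22. It was wider at others, as at WRKY70 (2.43 times) and SAG29 (2.47 times). The same ratio over all tested long loci was not computed, so whether these libraries lay closer than usual is not known.

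KNAT3 (AT5G25220), a homeobox gene of the KNOX family, shows this shape with 255 FPKM in zop1 against 91.4 in sta1, 78.4 in prp31 and 80.3 in the wild type. It and the next examples were singled out after their values were seen. AT1G01320, a tetratricopeptide-repeat gene, was at 204 FPKM in zop1 and at 85.4 to 87.8 in the other libraries, and ATAF1, a stress-responsive NAC factor gene, at 113 and 35.3 to 40.7. AT4G32920, a glycine-rich protein gene, was at 39.0 FPKM in zop1 and at 16.0 to 16.2 elsewhere. POLH, the DNA polymerase that copies past ultraviolet damage, was at 7.20 FPKM in zop1 and at 2.23 to 2.66 elsewhere. In these genes the libraries other than zop1 lay within a narrow band.

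BASL, which sets the polarity of dividing stomatal-lineage cells, was at 10.1 FPKM in zop1, 2.20 in sta1, 4.15 in prp31 and 3.47 in the wild type (1.79). The uncharacterised AT3G29633 and AT3G04854 had 16.7 and 8.70 FPKM in zop1 against a listed 0 everywhere else, and their reads could not be recovered. Both are counted among the 30 loci high in zop1. The AT3G04854 value equals that of AT2G07684, a 111-nt locus with 1 recovered read in zop1, so it may rest on very few reads. Loci called long from RefSeq can rest on few reads, as AT4G25707 does with 2 recovered in zop1 and 5 in sta1. Low in zop1 alone were NUDT24, a nudix hydrolase gene, at 0.560 FPKM against 6.34 in sta1, 2.39 in prp31 and 3.13 in the wild type, and AT5G33370, a GDSL-type lipase gene, at 0.0961 against 3.25, 1.46 and 1.72. GATB, a subunit of the organellar glutamyl-tRNA amidotransferase, singled out after its values were seen, was at 9.81 FPKM in zop1 and at 23.1 to 24.3 elsewhere. MIF3, AT2G01310 and AT3G46616 were listed at 0 in zop1 and rested on 5, 2 and 2 recovered reads in sta1. AT3G46616 was also listed at 0 in prp31, so it was not low in zop1 alone.

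Fewer genes set sta1 apart. PLC2, a phosphoinositide-specific phospholipase C, was at 20.2 FPKM in sta1 and at 58.1 in zop1, 68.9 in prp31 and 66.2 in the wild type, and ECT5, a YTH-domain protein that reads methylated adenosine in RNA, at 10.0 against 24.9, 25.7 and 27.3. Both were singled out after their values were seen. AT3G05727, annotated as a pollen-coat-like small protein, was at 6.17 FPKM in sta1, 36.7 in zop1, 16.1 in prp31 and 34.6 in the wild type (5.94-fold higher in zop1, 4.26 to 8.47). CRF12 (AT1G25470), an AP2-domain factor gene, was listed at 0.000285 FPKM in sta1 and at 4.32 in zop1, 3.27 in prp31 and 2.04 in the wild type. AT1G25472, a tested locus without an entry in the annotation used, mirrored it with 3.18 FPKM in sta1, 0.000212 in zop1, 0.000118 in prp31 and 1.52 in the wild type. Added together the pair came to 3.18 FPKM in sta1, 4.32 in zop1, 3.27 in prp31 and 3.56 in the wild type, so sta1 does not stand apart in the sum, and whether the same reads were assigned to either name was not tested. High in sta1 alone was AT5G38910, a cupin gene, at 5.77 FPKM against 1.27 in zop1, 1.38 in prp31 and 0.918 in the wild type (4.55-fold higher in sta1, 2.92 to 7.38).

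Among the other largest differences, AT5G23840, a lipid-recognition domain gene, was at 11.8 FPKM in zop1, 2.51 in sta1, 1.44 in prp31 and 10.0 in the wild type (4.71-fold, 3.23 to 7.06), again with zop1 near the wild type. AT2G36690, an iron-dependent oxygenase gene, was at 12.2 FPKM in zop1, 2.98 in sta1, 9.31 in prp31 and 7.11 in the wild type (4.09-fold, 3.38 to 4.99). AT3G25011 rested on 1 recovered read in zop1. Over the 73 long loci higher in zop1 the wild-type level lay nearer to sta1 at 42 (57.5%) and the prp31 level at 51 (69.9%), beside 44.5% and 55.3% of all tested long loci with a difference above 0. Over the 65 lower in zop1 these were 36 (55.4%) and 41 (63.1%), beside 58.9% and 59.0% of all long loci below 0.

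Mitochondrial stress genes leaned lower in zop1 than in sta1. The mitochondrial retrograde response carries signals of respiratory trouble to the nucleus and raises genes such as the alternative oxidase AOX1A. Of 13 listed genes 11 entered, 10 were below 0, 1 was past 2-fold lower and the median was -0.44. UGT74E2, an auxin-conjugating glycosyltransferase, was at 6.42 FPKM in zop1, 16.2 in sta1, 5.16 in prp31 and 2.26 in the wild type (2.52-fold higher in sta1, 2.23 to 2.86). AOX1A itself reached 33.5 FPKM in zop1 and 40.6 in sta1, against 22.8 in the wild type, so both mutants lay above the wild type and sta1 further. Tau-class glutathione transferases, which conjugate toxins to glutathione, had 16 of 20 entered genes below 0 and a median of -0.23. GSTU24 was past 2-fold lower in zop1 at 10.7 FPKM against 23.2 in sta1 (2.17-fold, 1.89 to 2.50), as was GSTU9 at 5.49 against 12.2.

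Copper and superoxide dismutase genes parted within 1 list, in which 1 of 7 was past 2-fold and the median was -0.01. CSD2, the plastid copper/zinc superoxide dismutase gene, was at 30.9 FPKM in zop1, 64.7 in sta1, 34.7 in prp31 and 39.2 in the wild type (2.09-fold higher in sta1, 1.88 to 2.33). CSD1, its cytosolic partner, was at 24.1 FPKM in zop1 and 47.0 in sta1 (-0.94), and the copper chaperone CCS at 13.0 and 18.9 (-0.51). All of these are known targets of the microRNA miR398, and each was highest in sta1. The iron enzyme FSD1 was level at 999.9 FPKM in zop1 and 1010 in sta1.

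The silencing and DNA demethylation genes, 32 of 32 entered, had 24 above 0 (57.4% over all loci), a median of 0.11 and 1 past 2-fold. That gene was ROS1 (AT2G36490), the DNA glycosylase that removes methylated cytosine, at 9.38 FPKM in zop1, 3.95 in sta1, 6.92 in prp31 and 11.7 in the wild type (2.38-fold higher in zop1). SDC, an F-box gene kept silent by DNA methylation, came close at 5.76 FPKM in zop1 and 2.52 in sta1, with 3.74 in prp31 and 1.64 in the wild type (0.94). The Pol IV and Pol V subunit genes NRPD1 and NRPE1 were level, at 0.969 and 2.83 FPKM in zop1 and 1.05 and 2.65 in sta1.

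Seed markers were low throughout. Of 12 listed 5 entered, all 5 were below 0 and the median was -0.74, with a summed level of 6.77 FPKM in zop1, 15.9 in sta1, 18.6 in the wild type and 9.73 in prp31; SESA1 and CRU2 were listed at 0 in every library. OLEO1, an oil-body oleosin gene, was past 2-fold lower at 0.349 FPKM in zop1 against 2.88 in sta1 (8.26-fold, 4.29 to 17.8), on 10 and 90 reads. Floral markers gave 3 of 9 entered and none past 2-fold; SOC1, a flowering integrator, was at 12.1 FPKM in zop1 and 5.74 in sta1 (0.95), and LFY was listed at 0.

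No member passed 2-fold in the remaining lists. The tri-snRNP list (16 entered, median -0.08) also holds ZOP1, the gene mutated in zop1, which had its largest difference. SR splicing factors (20, median 0.09) had RS31a at 0.53. Stress lists were close to 0, with medians of -0.05 for the fast stress response (ZAT10 largest, -0.58), 0.01 for cold (COR15B, -0.72), 0.03 for abscisic acid (ABI1, 0.64), 0.09 for jasmonate (LOX2, -0.92), 0.01 for heat shock (HSP23.5, -0.48), -0.04 for the unfolded protein response (SDF2, -0.10) and 0.18 for DNA damage (SMR7, -0.51). Nutrient lists other than sulfur were also near 0, at -0.08 for iron (F6'H1, -0.76), 0.02 for phosphate (PHR1, 0.56) and 0.15 for nitrate (NIA1, 0.77). Aliphatic glucosinolate genes had a median of 0.14 (SUR1, 0.58), flavonoid genes 0.15 (MYBL2, -0.69), cell cycle genes 0.14 (CYCD3;1, 0.33), auxin genes 0.11 (GH3.6, 0.43), clock genes -0.12 (ELF3, 0.56) and alpha-expansins 0.20 (EXPA1, 0.56). Members of these lists therefore stayed within the limits of the rule, whichever way they leaned.

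**Figure D5:**
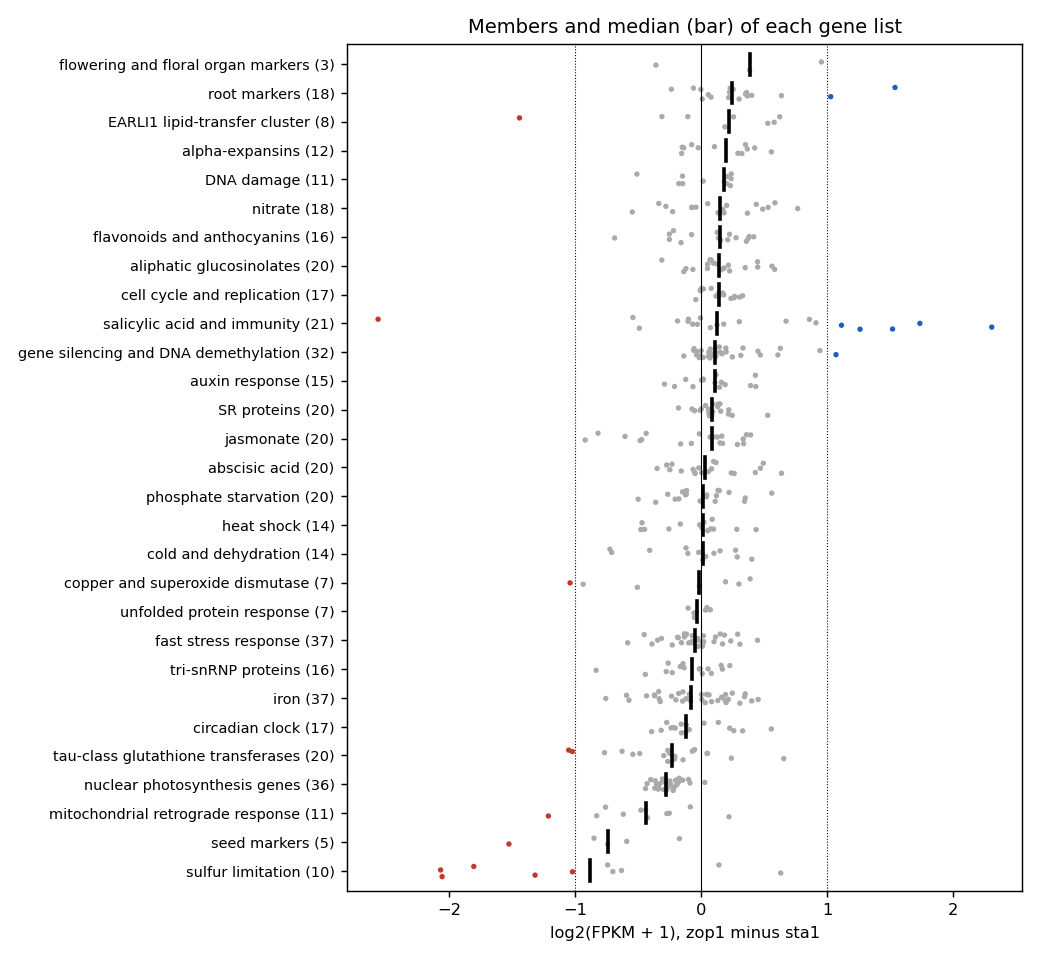
Differences in log2(FPKM + 1), zop1 minus sta1 (horizontal), of the entered members of 29 gene lists, with the number entered in brackets. Black bars are medians, dotted lines mark a difference of 1, and blue and red points are members past 2-fold higher and lower; sulfur limitation lies furthest left with 5 red points.

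The 880 shorter, non-coding or unannotated loci scattered more widely, with an SD of 1.36, and 66 (7.5%) were past 2-fold higher in zop1 and 57 (6.48%) lower. They held 16 and 9 miRNA, 7 and 12 snoRNA, 7 and 3 tRNA and 22 and 18 short protein-coding loci in that order. At 35 of the 66 and 35 of the 57 the lower library was listed at 0, and at short loci a few reads give a high FPKM. Among long loci the past 2-fold sets also differed in build: those lower in zop1 had a median transcript of 1186 nt and 3 exons, those higher 1645 nt and 4 exons, and all long loci 1736 nt and 5 exons. Single-exon genes made up 32.3%, 21.9% and 14.8% of these sets. The sets differed in level too, with a median mean FPKM of 4.72, 8.77 and 11.4 in the same order. Among the single-exon genes higher in zop1 are the lipid-transfer copies that may share reads. What part level or shared reads have in the differences of build was not tested.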

How the data were processed

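Each of the 4 libraries was 1 sample of 10-day-old seedlings, grouped by the genotype label. The authors deposited 1 table of FPKM values with 1 column per library. TAIR10 was the genome build and Cuffdiff, Cufflinks 2.0.1, Bowtie and TopHat2 2.0.12 were named as tools, per the submitters' processing notes, with no role; settings, read totals and the use of strand were not given in the sources used here. Names, lengths, positions and promoter sequence came from RefSeq TAIR10.1, which held 31416 of the 34133 loci. An exact 0 can be a failed estimate, since all 279 organelle loci and RBCS1A are listed at 0.

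From these FPKM, log2(FPKM + 1) was computed with a pseudocount of 1, which understates the difference of low genes; folds are ratios of FPKM. A locus was past 2-fold at a difference of at least 1. Whole reads were recovered from the steps of low values (55.3% of tested loci, as lower bounds, since a shared divisor cannot be seen), and gave exact binomial intervals of 95%. The steps were tested on simulated data. No test was possible with 1 library per genotype.

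Named are the 15 largest long loci each way, PRP31, ZOP1 and STA1, members of 30 gene lists (499 of 564 genes entered) past 2-fold or the largest where none was, and adjacent loci past 2-fold the same way; other genes are described from their lists or said to be chosen after their values were seen. Comparison, lists and alternatives were chosen with earlier results of these data known. The alternatives changed the pseudocount, the filter, the scaling, the transcript length and the fold. Python 3.11.15, numpy 2.4.6, pandas 2.3.3, scipy 1.17.1 and matplotlib 3.10.9 were used.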

Additional observations from a re-analysis of the deposited data

Results flagged for a closer look

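At 13 long protein-coding loci (0.0708% of 18360) zop1 and sta1 lay on opposite sides of the wild type, each by at least 1.5-fold on the log2(FPKM + 1) scale. The difference was not tested, since each genotype has 1 library, and the comparisons share the wild-type library. At none of them did both sides reach 2-fold.

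Above the wild type in zop1 and below it in sta1 were WRKY70 (1.31 and -0.99), CRF12 (0.81 and -1.60) and AT2G36690 (0.70 and -1.03). The low CRF12 value in sta1 was mirrored by AT1G25472, at 3.18 FPKM in sta1 and 1.52 in the wild type, and the sum of the pair was 3.18 in sta1 and 3.56 in the wild type, so this call does not hold for the sum. Below it in zop1 and above it in sta1 were the sulfur markers SDI1 (-1.44 and 0.63) and BGLU28 (-0.92 and 1.14), the camalexin gene PAD3 (-0.98 and 0.73) and the PR1-family gene AT4G33720 (-1.63 and 0.93). The same held for NUDT24 (-1.40 and 0.83), AT5G33370 (-1.31 and 0.64), the peroxiredoxin gene PER1 (-0.72 and 0.65) and the lectin gene AT3G16530 (-0.63 and 0.67). AT2G20870, a cell wall protein gene (-0.68 and 0.83), and AT3G46616 (-1.56 and 0.85) completed the set. AT3G46616 rested on 2 recovered reads in sta1 and was listed at 0 in both zop1 and prp31.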

How the results depend on the processing

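Counts past 2-fold moved with the pseudocount and the filter. Over all loci, higher and lower in zop1, a pseudocount of 0.1 FPKM gave 236 and 190, a pseudocount of 5 FPKM 67 and 58, a mean of at least 5 FPKM 87 and 65, and the 1.5-fold rule 585 and 342. For long loci the pseudocount of 0.1 gave 156 and 116, that of 5 gave 28 and 16, and the 1.5-fold rule 482 and 236. A mean of at least 5 left 32 lower and a transcript of at least 1000 nt left 41 lower. Recovered reads whose counting interval leaves out no difference, an alternative added after seeing the data, were found at 43 and 40. At these loci the wild type was nearer to sta1 at 88 higher and 70 lower with the pseudocount of 0.1, at 15 and 11 with 5, and at 20 lower with the mean of at least 5; prp31 was nearer to sta1 at 105 and 72, at 21 and 14, and at 24 lower. Dropping the filter, a mean over zop1 and sta1 alone, and median-of-ratios scaling, which shifted the difference by -0.05, moved none of the counts by 1.5 times.

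Of 30 list medians, those of sulfur limitation, photosynthesis and retrograde genes stayed below 0 under the 6 alternatives run on lists, and that of the seed markers under the 5 that gave it a value, since none of them reached a mean of 5 FPKM. Small medians changed sign: cold (-0.036), heat shock (-0.016), abscisic acid (-0.015) and phosphate (-0.028) under median-of-ratios scaling, abscisic acid (-0.0080), jasmonate (-0.014) and phosphate (-0.0091) without the filter, and flavonoid (-0.077), abscisic acid (-0.0080) and phosphate (-0.0091) at a mean of at least 5. The cause was not tested. None of the 56 named genes changed direction, but another pseudocount or filter cannot turn the direction of a gene. Only the scaling could have done so, and its shift was small. With the pseudocount of 5, 24 fell short of 2-fold, BGLU28, LSU2, PAD3 and ROS1 among them. Under median-of-ratios scaling 1 did. No paired analysis was possible because each genotype has 1 library, and for the same reason no library could be left out.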
